A study of Mus musculus with 5 samples.

Results

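The Schlafen genes are a family of interferon-inducible genes that lie side by side on mouse chromosome 11. The 6 members described here, Slfn1, Slfn2, Slfn4, Slfn5, Slfn8 and Slfn9, were taken by name from the 32285 genes of the count matrices. They were read in single nuclei of the mouse brain from 5 libraries of 1 mouse each, labelled hippocampus. In the 2 R241E libraries (R241E 1 and 2) the mice were Tmem119-creERT2-cGaswt/R241E, so that tamoxifen switched on 1 allele of the cytosolic DNA sensor cGAS carrying the R241E change, which the study describes as a gain of function. The 3 WT libraries (WT 1, 2 and 3) came from Tmem119-creERT2-cGaswt/wt mice, so the creERT2 driver was common to all 5. Per the study, the Tmem119 promoter limits the Cre enzyme chiefly to microglia and other brain macrophages, and the counts do not show which nuclei had recombined. Nuclei positive for DAPI and negative for the neuronal protein NeuN were sorted, and the study also sorted against Olig2, an oligodendrocyte-lineage protein. The question asked of the 6 genes was in which cell classes, and by how much, they differed between the genotypes.

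Type I interferons act through their receptor on a complex of transcription factors, Stat2 and Irf9 among them, that binds interferon-stimulated response elements in promoters, and mouse Schlafen genes are among the genes that respond. Slfn1 and Slfn2 encode the short proteins of the family, Slfn4 a protein of intermediate length, and Slfn5, Slfn8 and Slfn9 the long proteins that also carry a helicase-like region. Slfn1 and Slfn2 are known for their part in T-cell quiescence, a Slfn2 mutation causes the elektra immunodeficiency, and Slfn2 protein binds tRNAs and shields them from cleavage. Slfn4 is known from myeloid cells.

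In GRCm38 the 6 genes occupy chromosome 11 from 82951349 to 83190216, a stretch of 238.9 kb. Slfn5 (82951349 to 82964850) is followed by Slfn9 (82974316 to 82991830), Slfn8 (83002125 to 83020810), Slfn2 (83065112 to 83070678), Slfn1 (83116820 to 83122670) and Slfn4 (83175172 to 83190216). Promoter windows of 250 bases before to 50 bases after each RefSeq start in GRCm38.p6 were searched on both strands for GAAANNGAAA, the core of the interferon-stimulated response element. The windows of Slfn5, Slfn9 and Slfn8 held it and those of Slfn1, Slfn2 and Slfn4 did not. It stood in 3.44% of all 32851 windows. Its first base lay 155 bases before the start in Slfn5, 45 bases before it in Slfn9 and 48 bases before it in Slfn8. The 3 windows are shown because they belong to the long members, with the match in capitals, each read 5′ to 3′ on the strand of its gene. Slfn5 spans chr11:82951852-82952151 on the plus strand, Slfn9 chr11:82991781-82992080 and Slfn8 chr11:83020761-83021060, both on the minus strand. The Slfn5 window belongs to a RefSeq start inside the annotated gene, and a further RefSeq start of Slfn8 had the same match 136 bases before it. An annotated transcript of Slfn2 has 329 bases before the RefSeq start used, so the sequence before that transcript was not searched.
Slfn5: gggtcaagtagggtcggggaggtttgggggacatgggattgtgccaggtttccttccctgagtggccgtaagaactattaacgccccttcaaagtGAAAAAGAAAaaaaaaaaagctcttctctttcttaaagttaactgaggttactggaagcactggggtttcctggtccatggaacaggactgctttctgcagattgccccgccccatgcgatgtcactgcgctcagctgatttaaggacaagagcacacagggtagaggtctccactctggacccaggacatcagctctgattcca
Slfn9: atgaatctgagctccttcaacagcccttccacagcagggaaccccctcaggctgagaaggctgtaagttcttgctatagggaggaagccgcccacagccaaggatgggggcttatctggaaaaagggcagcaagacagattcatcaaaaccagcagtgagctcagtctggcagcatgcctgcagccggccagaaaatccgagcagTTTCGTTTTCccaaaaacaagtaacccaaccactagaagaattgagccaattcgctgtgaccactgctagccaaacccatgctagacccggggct
Slfn8: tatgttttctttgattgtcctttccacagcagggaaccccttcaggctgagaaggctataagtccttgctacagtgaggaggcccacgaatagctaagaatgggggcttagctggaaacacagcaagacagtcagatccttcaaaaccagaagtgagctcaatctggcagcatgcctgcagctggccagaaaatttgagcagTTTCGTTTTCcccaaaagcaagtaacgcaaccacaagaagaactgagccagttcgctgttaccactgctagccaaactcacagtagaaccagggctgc

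The Slfn9 and Slfn8 windows were alike, with 83.4% of aligned bases identical (246 of 295), and their match was written TTTCGTTTTC on the gene strand in both. Their transcripts were 90.1% identical over the aligned length, but only 42.9% over the last 500 bases, the end that a 3′ assay reads. Counts of Slfn8 and Slfn9 are therefore given with the limit that how the authors' counting treated reads from similar stretches was not checked. The windows of Slfn2, Slfn1 and Slfn4 instead shared a stretch around ACTTCC, the reverse complement of GGAAGT, a core that ETS-family factors are known to bind. That word was searched only after the windows had been compared, and it stood in 23.8% of all windows. The window of the relative Slfn3 held it as well, at 2 places. The stretches are shown with the word in capitals, for Slfn2 at chr11:83065042-83065077, Slfn1 at chr11:83116731-83116766 and Slfn4 at chr11:83175098-83175133, all on the plus strand.
Slfn2: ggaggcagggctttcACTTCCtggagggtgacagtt
Slfn1: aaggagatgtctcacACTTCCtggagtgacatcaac
Slfn4: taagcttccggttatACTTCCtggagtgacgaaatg
Slfn1 and Slfn4 shared 15 bases in a row here. These matches describe letters only and no binding was measured.

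After filtering, 9505 of 9748 deposited nuclei remained, with 4183709 to 10130667 unique molecular identifiers (UMIs, counted transcripts) per library before filtering and a median of 2125.5 to 3364 per kept nucleus. Library pairs shared 0 to 2 cell barcodes. All 25 clusters were named from marker genes, with the Schlafen genes left out of the clustering. Microglia-like nuclei numbered 1006 and 523 in R241E 1 and 2, and 926, 1471 and 1451 in WT 1 to 3. Their summed microglial markers were at 8044 and 9147 CPM in R241E and 8927, 9246 and 9470 CPM in WT, where CPM is the UMIs of a gene per 1000000 UMIs of the class in that library, and 1 of 10 was higher in both R241E libraries. Different clusters held most microglia of each genotype, since cluster 1 had 660 and 256 R241E nuclei against 46, 100 and 110 WT nuclei, and cluster 18 had 17 and 38 against 723, 953 and 607. A pituitary-like cluster came almost wholly from R241E 1 (52 nuclei, against 1 or 0 in the other libraries), which is not a hippocampal cell type, and R241E 1 also held 121 lymphocyte-like nuclei against 3 to 35 elsewhere. Cgas transcript itself stood at 83.2 and 87.9 CPM in R241E microglia and at 66.7, 72.4 and 74.4 CPM in WT microglia, and a count of transcripts does not check the allele.

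In microglia, Slfn5, Slfn9, Slfn8, Slfn2 and Slfn1 were each higher in R241E than in WT mice, and Slfn4 was almost undetected in both. All 5 of these genes had every R241E library above every WT library, as did 20.4% of the 12726 genes tested across the class. Of the same genes 766 (6.02%) were called higher in R241E, 413 (3.25%) lower, and thus 9.26% in either direction. Slfn4 was the 1 member of 6 that had too few UMIs to be tested.

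**Figure D1:**
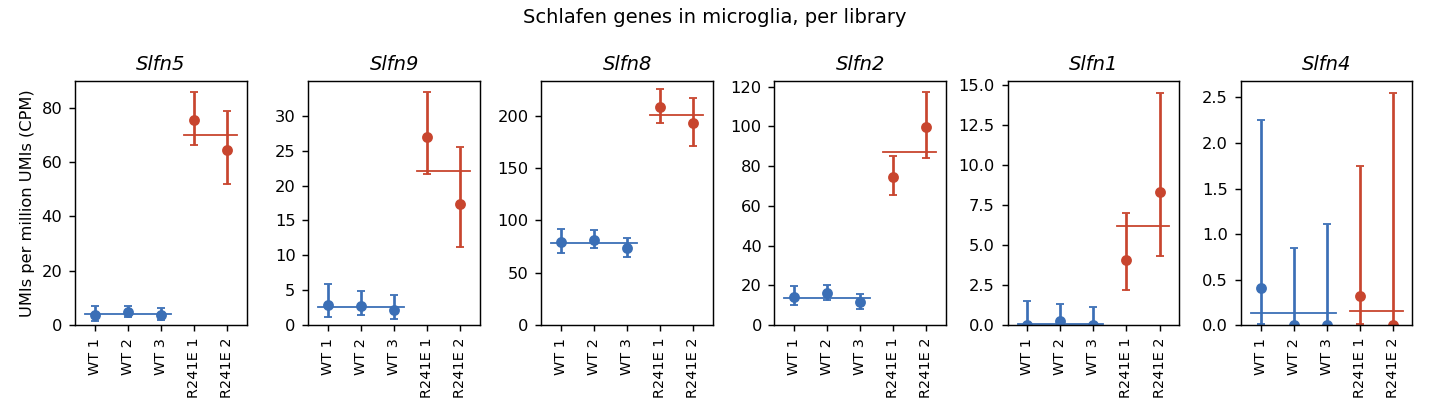
CPM of each Schlafen member in microglia (y axis, linear from 0), 1 point per library, with exact 95% Poisson intervals for counting error and lines at the group means. The R241E points lie above all WT points for Slfn5, Slfn9, Slfn8, Slfn2 and Slfn1, while Slfn4 rests on 1 UMI in each genotype.

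Among the long members, Slfn5, which encodes a nuclear protein, had the largest fold change. R241E 1 and 2 had 75.4 and 64.4 CPM of Slfn5 (240 and 93 UMIs), and WT 1 to 3 had 3.64, 4.61 and 3.60 CPM (9, 20 and 12 UMIs). The WT values lay close together and far below both R241E values. The group means were 69.9 ± 7.79 (SD, n = 2) and 3.95 ± 0.574 CPM (SD, n = 3). The fitted log2 fold change was 4.10 (SE 0.20, adjusted p = 2.24e-09, edgeR quasi-likelihood test with Benjamini-Hochberg adjustment). The long non-coding gene Slfn5os overlaps Slfn5 on the other strand and had 26 and 5 UMIs against 1, 3 and 0, a log2 fold change of 3.88 (SE 0.70, adjusted p = 0.00175). Whether reads were counted by strand is not given in the sources used here, and whether reads of this pair were kept apart was not checked.

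Slfn9 had 27.0 and 17.3 CPM in R241E 1 and 2 (86 and 25 UMIs) and 2.83, 2.77 and 2.10 CPM in WT 1 to 3 (7, 12 and 7 UMIs). The R241E libraries differed from each other more than the WT libraries did, without reaching the WT range. Its log2 fold change was 3.14 (SE 0.31, adjusted p = 6.21e-06). Slfn8, its neighbour and near copy, was present in both genotypes, with 209 and 193 CPM in R241E (664 and 279 UMIs) and 79.6, 81.4 and 73.5 CPM in WT (197, 353 and 245 UMIs). Each group varied little around its mean, 201 ± 10.9 (SD, n = 2) and 78.2 ± 4.16 CPM (SD, n = 3). The log2 fold change of Slfn8 was 1.35 (SE 0.11, adjusted p = 4.56e-07).

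Of the short members, Slfn2, which is needed for immune-cell quiescence, had 74.8 and 99.7 CPM in R241E 1 and 2 (238 and 144 UMIs) and 14.2, 15.9 and 11.4 CPM in WT 1 to 3 (35, 69 and 38 UMIs). R241E 2 was the higher library here, unlike for Slfn5, Slfn8 and Slfn9. The log2 fold change of Slfn2 was 2.59 (SE 0.18, adjusted p = 1.17e-07). Slfn1 had 13 and 12 UMIs in R241E microglia (4.08 and 8.31 CPM) and 0, 1 and 0 UMIs in WT microglia. Because WT held a single UMI, the ratio of the pooled levels, 54.8, has a wide 95% counting interval of 8.97 to 2250, and the adjusted p was 7.38e-04.

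Slfn4 had 1 UMI in R241E 1 and 1 UMI in WT 1 among all microglia, a pooled ratio of 2.19 with a 95% counting interval of 0.028 to 172, so a difference was not detectable at this depth. The pooled ratio was 17.8 for Slfn5 (12.8 to 25.3), 9.36 for Slfn9 (6.06 to 14.9), 5.90 for Slfn2 (4.85 to 7.2005) and 2.60 for Slfn8 (2.36 to 2.86), where each interval covers counting error only. Ordered by p among the 12726 genes, Slfn5 ranked 20, Slfn2 52, Slfn8 67, Slfn9 109 and Slfn1 312. Of the relatives outside the 6 members, Slfn3 had 8 and 2 UMIs in R241E microglia against 2, 9 and 2 in WT microglia (ratio 1.69, interval 0.662 to 4.16), and Slfn14 and Slfnl1 had none.

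Transcripts that mark other classes also varied between the microglial sums. The summed monocyte or neutrophil markers were at 740 and 643 CPM in R241E and 566, 560 and 577 CPM in WT, with 4 of 8 higher in both R241E libraries. Summed markers of dendritic cells were at 42.1 and 36.7 against 20.2, 24.2 and 25.5 CPM, with 2 of 6 higher in both R241E libraries and Cd209a at 0. Markers of border-associated macrophages were lower in R241E (98.3 and 143 against 217, 211 and 240 CPM), with 1 of 8 higher in both. Those of lymphocytes overlapped, at 46.8 and 24.2 against 44.9, 39.9 and 28.5 CPM, with 4 of 12 higher in both. Oligodendrocyte markers were higher in R241E (218 and 305 against 131, 128 and 144 CPM, 5 of 7 higher in both), and so were mural markers (31.1 and 33.2 against 16.2, 21.2 and 22.5 CPM, 4 of 8 higher in both). With only the 5344 nuclei led by microglial markers kept, the log2 fold changes were 4.11 for Slfn5, 3.15 for Slfn9 and 1.36 for Slfn8. They were 2.60 for Slfn2 and 5.32 for Slfn1. Transcripts of other classes inside the kept nuclei stayed in these sums, and their part in the differences above was not tested.

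Single microglial nuclei differed in whether a member was seen in them. After thinning every nucleus to 1000 UMIs, a UMI of any member was seen in 26.9% and 24.1% of R241E microglia (268 of 997 and 120 of 498 nuclei), against 9.75%, 9.39% and 8.51% of WT microglia (88 of 903, 136 of 1448 and 118 of 1387). The group means were 25.5 ± 1.97% (SD, n = 2) and 9.22 ± 0.638% (SD, n = 3), and the two-sided exact permutation p was 0.1, the smallest that 2 against 3 libraries allow. Without thinning the shares were 54.0% and 45.9% in R241E and 20.7%, 22.6% and 15.9% in WT. In neurons, taken as the background class, thinned shares ran from 0 to 2.24% over the libraries. Slfn5 was seen in 6.42% and 5.82% of R241E microglia and in 0.332%, 0.138% and 0.505% of WT microglia. The share for Slfn8 was 16.9% and 12.7% against 7.53%, 7.11% and 6.99%, and for Slfn2 6.32% and 8.84% against 1.55%, 2.00% and 1.01%. For Slfn5 alone the neuronal shares were 0, 0 and 1.06% in WT 1 to 3, the last from 1 of 94 nuclei. The WT microglial shares of Slfn5 lay within this range, so in WT microglia a Slfn5 UMI in a single nucleus was not shown to exceed that background.

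Within R241E microglia the members were unevenly spread. Nuclei were sorted by how many UMIs of the study's list of interferon-related genes they held after thinning, a list that has no Schlafen gene. The CPM of each bin was taken from the counts before thinning. In R241E 1, Slfn5 was at 19.4 CPM in nuclei with 0 list UMIs, 22.9 with 1, 37.6 with 2 to 3 and 180 with 4 or more, and in R241E 2 it was at 11.2, 9.79, 19.7 and 197 CPM. The last bin thus stood far above the others in both mice. It held 31.0% and 25.9% of R241E microglia, but 0.997%, 0.898% and 1.08% of WT microglia, which is 9, 13 and 15 nuclei.

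**Figure D2:**
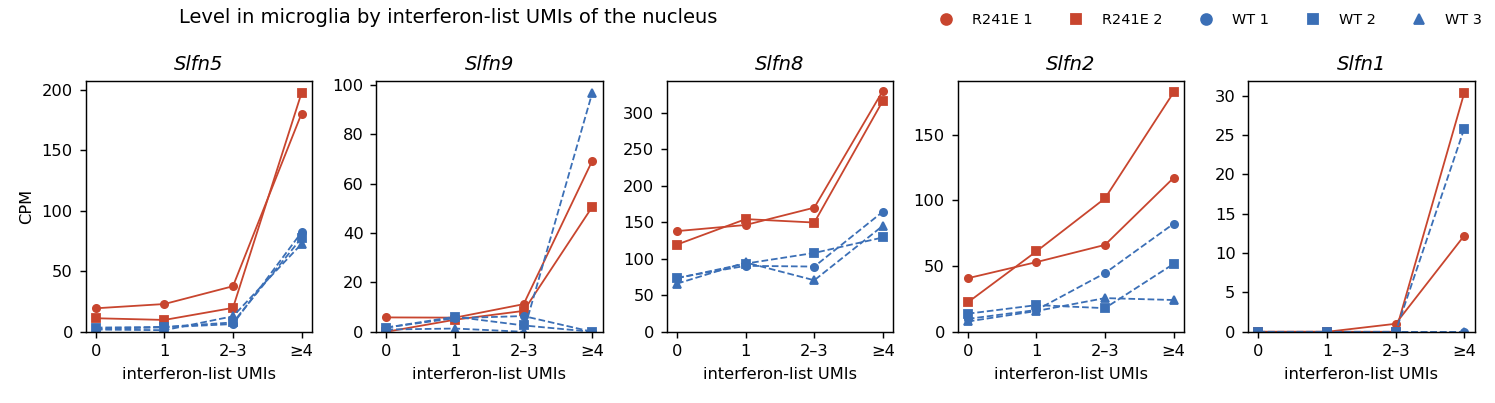
CPM of Slfn5, Slfn9, Slfn8, Slfn2 and Slfn1 (y axis) in microglia grouped by the number of interferon-list UMIs after thinning (x axis: 0, 1, 2 to 3, 4 or more), 1 line per library. For all 5 genes each R241E line has its own highest point in the last bin. The WT lines rest there on 9 to 15 nuclei, and for Slfn9 WT 3 lies above both R241E lines.

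Slfn9 followed Slfn5, with 5.82 and 0 CPM in R241E nuclei without a list UMI after thinning and 69.3 and 50.6 CPM in those with 4 or more. Slfn1 was the most concentrated, with 12 of its 13 UMIs in R241E 1 and all 12 in R241E 2 coming from the last bin. Slfn2 went from the first bin to the last from 40.8 to 117 CPM in R241E 1 and from 22.4 to 182 CPM in R241E 2. Slfn8 was the most even, going from 138 to 330 CPM and from 119 to 316 CPM. In nuclei with no list UMI after thinning, the R241E values were still above the WT values for Slfn5, Slfn2 and Slfn8. WT 1 to 3 were at 2.31, 3.44 and 1.84 CPM for Slfn5 and at 9.83, 13.8 and 7.84 CPM for Slfn2. For Slfn8 they were at 74.0, 73.3 and 66.0 CPM. Such nuclei could hold list UMIs before thinning, so they are not nuclei shown to lack an interferon response. In the few WT nuclei of the last bin, Slfn8 was at 164, 129 and 145 CPM and Slfn2 at 82.2, 51.6 and 24.2 CPM. Slfn5 was at 82.2, 77.5 and 72.6 CPM there, from 2, 3 and 3 UMIs. Slfn9 was at 0, 0 and 96.7 CPM, so that WT 3, with 4 UMIs, stood above both R241E libraries. Slfn1 was at 0, 25.8 and 0 CPM, where the 1 UMI of WT 2 put it above R241E 1 (12.2 CPM) and below R241E 2 (30.4 CPM). These values are a description, and no test was run on them.

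The members differed in which other cells expressed them in WT brain. Slfn8 was mostly microglial in these libraries, with 795 of its 897 WT UMIs (88.6%) in microglia, whereas microglia held 41 of 162 Slfn5 UMIs (25.3%), 1 of 27 Slfn1 UMIs (3.70%) and 1 of 61 Slfn4 UMIs (1.64%). In R241E libraries the share in microglia was 78.2% for Slfn8, 58.6% for Slfn5, 18.1% for Slfn1 and 1.96% for Slfn4. For Slfn2 it was 57.7% in WT and 60.4% in R241E, and for Slfn9 81.2% and 82.8%. These shares also follow how many nuclei of each class a library held, so the levels per class were compared next.

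**Figure D3:**
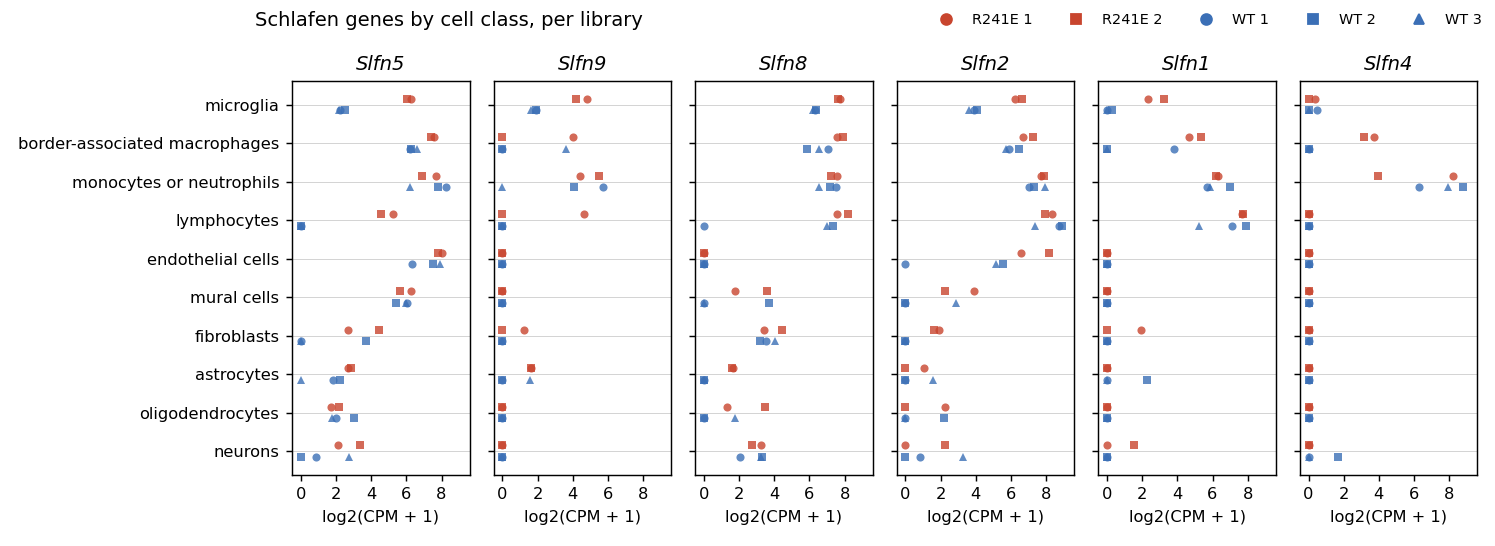
Level of each Schlafen member as log2(CPM + 1) (x axis) in 10 cell classes (y axis), 1 point per library, R241E and WT in separate colours. Slfn8 is high in WT microglia and other immune classes, Slfn5 is low in WT microglia but not in monocytes or neutrophils, endothelial cells, border-associated macrophages and mural cells, and Slfn4 is highest in monocytes or neutrophils.

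In WT mice Slfn5 was highest in monocytes or neutrophils (74.4 to 305 CPM), endothelial cells (78.4 to 240 CPM) and border-associated macrophages (71.9 to 97.0 CPM), and these ranges overlapped. Mural cells, the contractile cells of vessel walls, came next at 41.8 to 64.9 CPM, below all border-associated macrophage values. Oligodendrocytes (2.43 to 7.01 CPM), fibroblasts (0 to 12.2 CPM), microglia (3.60 to 4.61 CPM), neurons (0 to 5.73 CPM) and astrocytes (0 to 3.76 CPM) followed, with overlapping values from 2 to 4 UMIs per class outside microglia. Microglia minus border-associated macrophages differed by −4.17 on the log2 scale (SE 0.51, adjusted p = 2.56e-07), with 19.3% of the 9273 genes called in either direction. Microglia minus mural cells differed by −3.72 (SE 0.58, adjusted p = 5.60e-06), with 39.0% of genes called. No difference between microglia and oligodendrocytes was called for Slfn5 (−0.28, adjusted p = 0.817, with 50.1% of genes called), nor with fibroblasts (−0.25, adjusted p = 0.861, with 45.9% of genes called).

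Slfn8 had another order in WT mice. Monocytes or neutrophils (90.9 to 178 CPM), lymphocytes (0 to 161 CPM, 9 UMIs), border-associated macrophages (56.4 to 131 CPM) and microglia (73.5 to 81.4 CPM) led it, and each of these ranges overlapped the next. Fibroblasts (8.13 to 15.5 CPM) lay below all microglial values, and neurons, mural cells, oligodendrocytes and astrocytes were at 0 to 11.9 CPM. Microglia minus border-associated macrophages was −0.09 (SE 0.31, adjusted p = 0.885). Slfn8 was higher in microglia than in neurons by 3.54 (SE 0.40, adjusted p = 1.59e-08, with 57.7% of genes called), than in mural cells by 3.93 (SE 0.67, adjusted p = 2.76e-05) and than in fibroblasts by 2.75 (SE 0.48, adjusted p = 2.44e-05). Astrocytes held no Slfn8 UMI in WT mice, and the level in microglia was 30.6-fold a floor of 3 counts over the group. The lower end of the exact 95% counting interval was 24.85-fold. The difference was called by edgeR (adjusted p = 4.48e-09, with 55.6% of genes called). In WT neurons microglial marker transcripts stood at 7.43% of their microglial level and Slfn8 at 6.82% of its own. Slfn2 stood there at 13.9% (4 UMIs) and Slfn5 at 36.0% (3 UMIs) of their microglial levels. The source of these neuronal transcripts was not tested.

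Slfn2 was highest in lymphocytes of WT mice (163 to 482 CPM), followed by monocytes or neutrophils (127 to 248 CPM), which overlapped them. Border-associated macrophages (51.4 to 87.7 CPM) lay below both. Endothelial cells (0 to 45.3 CPM, 2 UMIs) and microglia (11.4 to 15.9 CPM) lay lower again and overlapped each other. Neurons, mural cells, oligodendrocytes, astrocytes and fibroblasts were at 0 to 8.60 CPM. Microglia minus border-associated macrophages was −2.09 (SE 0.49, adjusted p = 0.00236), and this call was lost without WT 2 (adjusted p = 0.0955). Slfn2 was higher in microglia than in neurons by 2.37 (SE 0.73, adjusted p = 0.00707), which was lost without WT 1 (0.125) or WT 2 (0.134), and did not pass the test against mural cells (2.44, SE 1.22, adjusted p = 0.124). Slfn1 was high in lymphocytes (36.2 to 241.1 CPM) and in monocytes or neutrophils (50.9 to 128 CPM) of WT mice and had 2 UMIs in border-associated macrophages. Slfn4 was held chiefly by the class named monocytes or neutrophils, at 76.4, 432 and 240 CPM in WT 1 to 3. That cluster was also led by the immunoglobulin gene Igkc, so the cell type holding Slfn4 within it was not resolved. The separate class named lymphocytes, led by T-cell genes such as Themis and Cd3d, held no Slfn4 UMI in any library.

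In border-associated macrophages, the other macrophages of the brain and its coverings, the genotype differences were modest and none of the 3 members with enough counts for a test was called. Slfn5 was at 193 and 165 CPM in R241E (63 and 21 UMIs) and at 71.9, 75.2 and 97.0 CPM in WT (11, 12 and 17 UMIs). The log2 fold change was 1.16 (SE 0.31, adjusted p = 0.0781). Slfn8 was at 187 and 244 against 131, 56.4 and 91.3 CPM, a log2 fold change of 1.18 (SE 0.31, adjusted p = 0.0787), which passed at 0.0294 without the filter on low counts and at 0.0435 without WT 1. Slfn2 was at 101 and 149 against 58.8, 87.7 and 51.4 CPM (0.86, SE 0.38, adjusted p = 0.518). Slfn1 had 8 and 5 UMIs against 2, 0 and 0 (pooled ratio 6.99, 95% counting interval 1.58 to 63.8), Slfn4 had 4 and 1 UMIs against none, and Slfn9 was at 15.3 and 0 against 0, 0 and 11.4 CPM. With 44 to 105 nuclei per library, 32 of 3947 genes (0.811%) were called higher in R241E in this class.

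The genotype effect on Slfn5 was smaller in border-associated macrophages than in microglia by 2.92 on the log2 scale, and this difference was itself tested. The interaction term was −2.92 (SE 0.47, adjusted p = 2.40e-07), in a fit that called 55 of 10919 genes (0.504%) in that direction. For Slfn2 the term was −1.69 (SE 0.45, adjusted p = 0.0273), and leaving out any 1 library ended the call (adjusted p 0.0574 to 0.424). For Slfn8 it was −0.14 (SE 0.33, adjusted p = 1), so the effects of the genotype on Slfn8 in the 2 macrophage classes were not shown to differ.

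**Figure D4:**
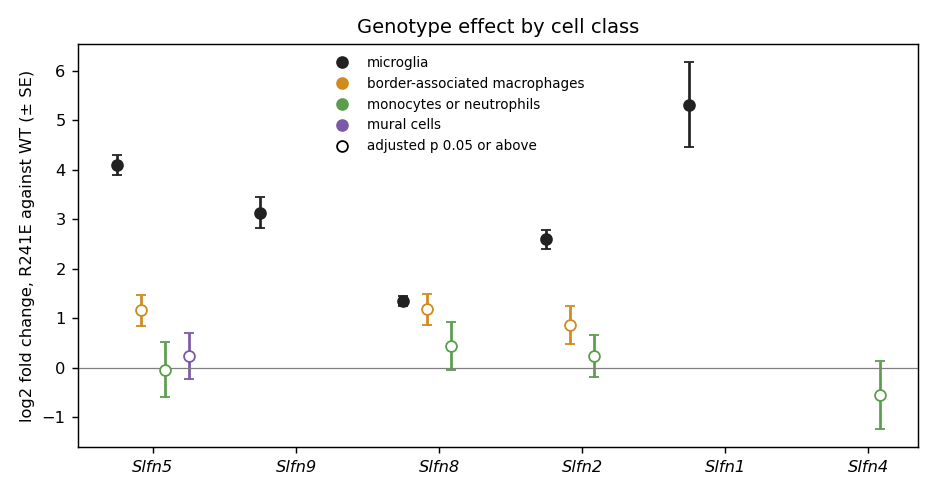
Log2 fold change of R241E against WT with its standard error (y axis) for each Schlafen member tested (x axis) in microglia, border-associated macrophages, monocytes or neutrophils and mural cells, where open circles mark an adjusted p of 0.05 or more. The 5 filled circles are all in microglia, from 1.35 for Slfn8 to 5.31 for Slfn1, whose size rests on a single WT UMI.

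In mural cells Slfn5 had 77.4 and 48.3 CPM in R241E (33 and 13 UMIs) and 64.9, 41.8 and 62.4 CPM in WT (5, 7 and 10 UMIs), so the groups overlapped. The log2 fold change was 0.24 (SE 0.46, adjusted p = 0.999), and its sign turned to −0.19 without R241E 1. The interaction term against microglia was −3.77 (SE 0.59, adjusted p = 4.00e-07), in a fit with 0.234% of genes called in that direction. No gene was called between the genotypes in mural cells by edgeR or by DESeq2, so that 0% were called higher, and 174 of 3862 genes had an unadjusted p under 0.05. The Slfn5 level in WT mural cells was 1345% of that in WT microglia, where microglial marker transcripts stood at 10.03% of theirs.

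Oligodendrocytes gave an interaction term for Slfn5 of −4.78 (SE 1.32, adjusted p = 0.0428, with 0.488% of genes called), but it rested on 8 UMIs in that class and was lost when any 1 library was left out (adjusted p 0.0840 to 0.966). In astrocytes (−2.42, adjusted p = 0.659, with 0.610% of genes called), fibroblasts (−2.73, adjusted p = 0.473, with 0.641% of genes called) and neurons (−2.30, adjusted p = 0.716, with 0.101% of genes called) the term for Slfn5 did not pass. These classes held few Slfn5 UMIs, for example 5 and 3 in R241E astrocytes against 1, 1 and 0 in WT astrocytes.

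The cluster named monocytes or neutrophils was led by the immunoglobulin gene Igkc and the antigen-presentation genes Cd74 and H2-Aa beside the neutrophil genes Retnlg and Ngp. Most Slfn4 UMIs lay in this class. Slfn4 was at 293 and 14.7 CPM in R241E 1 and 2 (44 and 1 UMIs) and at 76.4, 432 and 240 CPM in WT 1 to 3 (3, 27 and 29 UMIs). The 2 R241E mice differed widely and overlapped the WT mice, and the log2 fold change was −0.54 (SE 0.69, adjusted p = 0.999). Slfn2 was at 206 and 236 against 127, 160 and 248 CPM, Slfn5 at 206 and 118 against 305, 224 and 74.4 CPM, and Slfn8 at 186 and 147 against 178, 144 and 90.9 CPM, all with overlap and all with an adjusted p of 0.999. This test was added after the data had been seen, because WT 1 held 18 nuclei of the class, under the minimum of 20, and 1 of 1826 genes (0.0548%) was called higher, the immunoglobulin light chain gene Iglc1 (5.30, SE 0.62, adjusted p = 0.00128).

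Lymphocytes and endothelial cells were too few for a test. Slfn2 in lymphocytes was at 325 and 248 CPM in R241E and 417, 482 and 163 CPM in WT, where WT 1 and WT 2 held 3 and 7 nuclei. Slfn1 was at 203 and 214 against 139, 241.1 and 36.2 CPM in the same cells. Lymphocyte Slfn8 was at 190 and 293 against 0, 161 and 127 CPM, from 56 and 26 against 0, 2 and 7 UMIs. The pooled ratio was 1.78 (95% counting interval 0.893 to 4.03). In endothelial cells Slfn2 was at 92.7 and 289 against 0, 45.3 and 34.3 CPM, from only 13 UMIs in R241E and 2 in WT. The pooled ratio was 5.60 (interval 1.27 to 51.1). Endothelial Slfn5 was at 255 and 225 CPM in R241E and 78.4, 181 and 240 CPM in WT, from 7 to 17 nuclei per library, and Slfn8, Slfn1, Slfn4 and Slfn9 had no endothelial UMI.

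Lists of genes tied to what the Schlafen proteins are known for were read from the same microglial fit. The list of interferon-related genes that the study used to name microglial states, drawn from earlier publications per the study, had 28 of 28 tested genes called higher, with a median log2 fold change of 4.18 against −0.005 over all genes. Its members with the smallest adjusted p were Ifi204, a DNA-binding interferon-induced gene (log2 fold change 4.89, adjusted p = 1.07e-11), Nlrc5, a regulator of MHC class I genes (3.83, adjusted p = 4.48e-11), Oas2, an antiviral enzyme that responds to double-stranded RNA (6.28, adjusted p = 6.23e-11), and Usp18, a brake on interferon signalling (3.95, adjusted p = 8.08e-11). Of the signalling genes upstream, 7 of 16 were called higher (against 6.02% of all genes) and none lower (median 0.58), among them Stat2 (2.34, adjusted p = 5.45e-09), Irf7 (3.53, adjusted p = 2.15e-08) and Irf9 (1.10, adjusted p = 1.40e-05). Usp18, Irf7 and Stat2 stood on both lists.

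**Figure D5:**
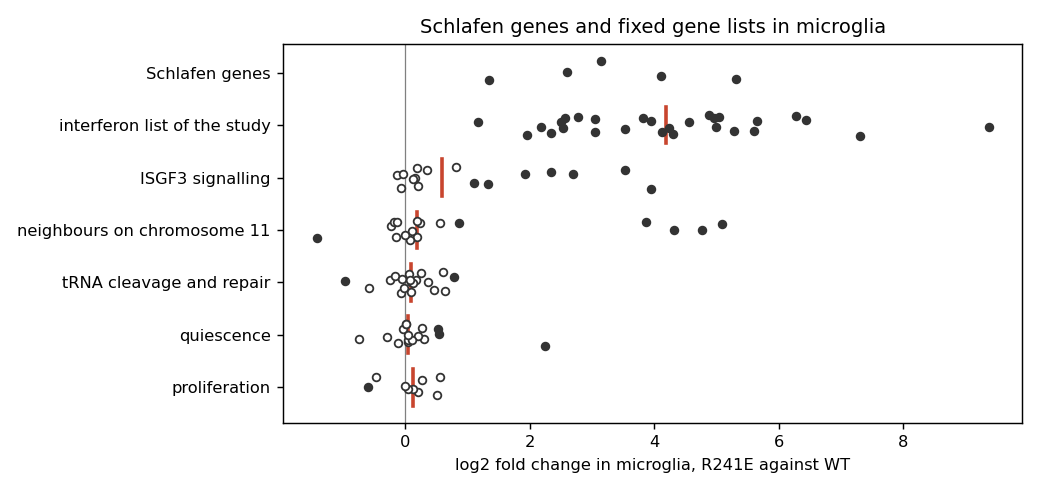
Log2 fold change of R241E against WT in microglia (x axis) for the tested Schlafen genes and for the tested genes of 6 lists, 1 point per gene, filled where called. Red lines mark the median of each list and the grey line that of all genes, −0.005. The interferon list lies far to the right, with its median at 4.18, while the tRNA, quiescence and proliferation lists centre near 0.

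Genes of tRNA cleavage and repair, the process in which Slfn2 takes part, had a median log2 fold change of 0.09. Of 19 tested genes 1 was called higher and 1 lower, against 6.02% and 3.25% of all genes. Rtcb, the ligase that rejoins cleaved tRNA, was higher (0.78, adjusted p = 0.00394). The tRNA-cleaving ribonuclease Ang was at 0.46 (adjusted p = 0.2002).

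Of 16 tested quiescence genes 3 were called higher (median 0.05), against 6.02% of all genes. They were Cdkn1a, an inhibitor of cyclin-dependent kinases (2.25, adjusted p = 3.74e-04), the antiproliferative gene Btg1 (0.52, adjusted p = 0.0153) and Cdkn1b, another kinase inhibitor (0.54, adjusted p = 0.0356). Hes1 was at −0.74 (adjusted p = 0.209). Among 9 tested proliferation genes 1 was called, Cdk6, a kinase of the G1 phase, which was lower (−0.60, adjusted p = 0.00344), against 3.25% of all genes called lower. Ccnd3 was at −0.48 (adjusted p = 0.0596), Ccnd1 at 0.50 (adjusted p = 0.210) and Mcm6 at 0.56 (adjusted p = 0.500). The other 10 genes of that list had too few counts to be tested in microglia.

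Around the family on chromosome 11, 17 listed neighbours were tested, and 5 were called higher and 1 lower (median 0.18), against 6.02% and 3.25% of all genes. All 5 were chemokine genes, the first 4 being Ccl12 (3.86, adjusted p = 9.00e-10), Ccl5 (4.31, adjusted p = 2.22e-06), Ccl2 (4.77, adjusted p = 4.15e-05) and Ccl7 (5.09, adjusted p = 8.73e-04). The fifth was Ccl4 (0.86, adjusted p = 0.0117), named after its value was seen. Mmp28, a secreted protease, was lower (−1.42, adjusted p = 0.00118). The position of the members in a block was thus shared with neighbours that moved both ways and with 11 that were not called.

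Each of the 5 members tested in microglia was also matched with the genes whose level followed it most closely over 35 sums, which are 7 classes in each of 5 libraries. These Pearson correlations are a description without a test, because the sums share libraries and depth and the classes differ widely. Slfn5 was closest to Ifi211 (r = 0.934), Ifi204 (0.857), Mndal (0.839), Ifi203 (0.825) and Pml (0.821), of which Ifi211, Ifi204, Mndal and Ifi203 belong to 1 interferon-induced family. Slfn2 was closest to Casp1, an inflammatory protease (0.942), Phf11d (0.931), Ifi209 (0.930), Clta (0.922) and Ifi207 (0.920). Slfn8 was closest to Adcy7 (0.939), Ly6e (0.935), Ulk2 (0.923), Ctsc (0.917) and Fes (0.915).

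Slfn1 was closest to Oasl1 (0.874), Gm13822 (0.869), Ms4a4c (0.858), the MHC class II gene H2-Ab1 (0.856) and Cd300ld2 (0.845, from 3 UMIs). Slfn9 was closest to 5330426L24Rik (0.859), Gm26571 (0.857), Pira2 (0.818), H2-Q6 (0.814) and Bcl2a1d (0.808). Between members the correlation ran from 0.273 for Slfn4 with Slfn9 to 0.818 for Slfn2 with Slfn8, and no member was among the 5 closest matches of any of these 5 genes. In the classes used, Slfn4 had only 5 UMIs in border-associated macrophages, 2 in microglia and 1 in neurons. Slfn1 had 26 UMIs in microglia and 15 in border-associated macrophages, and 2 or fewer in each other class used. The correlations of these 2 genes thus rest on few counts.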

How the data were processed

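Counts were deposited by the authors as 10x matrices of whole UMI counts per gene and nucleus, not normalized (10x Chromium 3′ chemistry, Cell Ranger and mm10 per the labels). Whether introns or strand were counted is not given in the sources used here. In scanpy 1.11.5, nuclei were kept with at least 200 and under 4500 genes, under 10000 UMIs and under 5% mitochondrial counts. The Leiden clusters (3000 variable genes without Schlafen genes, 30 components, 20 neighbours, resolution 1) were named from fixed markers, with at least 3 detected. Scrublet called 42 doublets, and leaving out the 156 highest scores was an alternative. Nuclei of a mouse share their source, so the UMIs of a class were added up for each library and tested with edgeR 4.0.16 (TMM, filterByExpr, quasi-likelihood) over all genes with Benjamini-Hochberg adjustment at 0.05, where all libraries held 20 or more nuclei of the class. The study tested nuclei singly with MAST. DESeq2 1.42.0, no filter, thinning and left-out libraries were alternatives, and the script was tested on simulated data. Replicates were separate mice. CPM is per 1000000 UMIs of the class sum, and intervals are exact at 95% and cover counting error only. Reads are 3′ ends, so levels were not compared between genes.

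The named genes were the 6 members, their relatives, the 4 genes per list with the smallest adjusted p plus any called against their list, and the 5 closest matches of each member. Some genes that this rule names are not reported here. Microglial sums of a genotype pair correlated at 0.972 (R241E) and 0.976 to 0.983 (WT) across genes and differed by more than sampling noise. The members and gene lists were chosen with earlier results of these data known. Alignment used mafft 7.526. Positions and promoter windows came from RefSeq (GRCm38.p6), and a label on H151 or DMSO treatment that names no sample was not used.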

Additional observations from a re-analysis of the deposited data

Results flagged for a closer look

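In 4 cases the genotype effect differed between microglia and another class by the interaction test of edgeR. For Slfn5 the R241E effect was smaller than in microglia in border-associated macrophages (−2.92 on the log2 scale), in mural cells (−3.77) and in oligodendrocytes (−4.78, from 8 UMIs), and for Slfn2 it was smaller in border-associated macrophages (−1.69). The terms in oligodendrocytes and for Slfn2 were lost when any 1 library was left out.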

How the results depend on the processing

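In microglia all 5 tested members kept their direction and call in every alternative in which they could be tested, with log2 fold changes over left-out libraries of 3.96 to 4.27 for Slfn5, 2.40 to 2.81 for Slfn2, 1.28 to 1.40 for Slfn8, 2.71 to 3.36 for Slfn9 and 4.87 to 6.88 for Slfn1. Slfn1 could not be tested without either R241E library, and neither Slfn1 nor Slfn9 after thinning. Genes called in microglia numbered 1179, against 711 after thinning, 2108 with the replicate block and 530 to 1547 over left-out libraries. In border-associated macrophages 37 became 5 with DESeq2, 70 without the filter, 66 with the replicate block, 14 after thinning and 6 to 44 over left-out libraries, and Slfn8 passed without the filter (1.23) and ranged from 0.93 to 1.49. In mural cells 0 became 3 without the filter, 2 with the replicate block and 3 without high Scrublet scores, and was 0 to 2 over left-out libraries. The difference in shares with any member, 16.3 percentage points, was 30.2 without thinning, 10.4 after thinning to 500 UMIs and 14.9 to 17.7 over left-out libraries. Over left-out libraries Slfn5 in mural cells ran from −0.19 to 0.51, and in monocytes or neutrophils Slfn4 from −3.92 to 0.18 and Slfn5 from −0.55 to 0.36. The interaction with border-associated macrophages ran from −1.79 to −1.56 for Slfn2, −0.44 to 0.13 for Slfn8 and −3.52 to 3.76 for Slfn1. For Slfn5 it ran from −5.02 to −4.14 in oligodendrocytes and −3.84 to 2.96 in fibroblasts. In WT mice, microglia minus border-associated macrophages ran from −0.43 to 0.26 for Slfn8 and −2.12 to −1.99 for Slfn2, and microglia minus the class for Slfn2 from 3.02 to 6.44 (astrocytes), 6.15 to 6.54 (fibroblasts), 1.69 to 4.03 (neurons) and 2.77 to 6.12 (oligodendrocytes). The cause was not tested. The titles share mouse numbers 1 and 2 between genotypes, but the mice were separate and their deviations correlated at 0.099 and −0.018, so the block pairs numbers only. With it the microglial log2 fold change was 3.98 for Slfn5. Slfn4 in microglia and all members in classes with few nuclei were limited by depth.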

Other observations

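Slfn14, a relative outside the 6 members, was found in neurons of 1 cluster, with 8 UMIs in 2 of 33 nuclei of R241E 1 and 13 UMIs in 6 of 31 nuclei of WT 3. Slfn3, the neighbour of Slfn4, was at 23.2 and 32.1 CPM in R241E endothelial cells and at 0, 0 and 137 CPM in WT endothelial cells. The ependymal-like nuclei of R241E 1 held 12 Slfn8 UMIs. The non-coding gene AI662270 beside the family was lower in R241E microglia (log2 fold change −0.99, SE 0.29, adjusted p = 0.0455, edgeR).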
